A study of Mus musculus with 18 samples.

Results

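The 10 genes described here encode parts and regulators of the neuronal microtubule: the beta-tubulins Tubb3, Tubb2a and Tubb2b, the alpha-tubulins Tuba1a and Tuba4a, the stathmins Stmn1, Stmn2, Stmn3 and Stmn4, and the microtubule-associated protein Map1b. They were found by their symbols among 38924 genes in the count table of each library, and all 10 passed the filter on low counts in every comparison. Their mRNA was measured in spinal cord by RNA sequencing after RiboTag, a method in which Cre recombinase switches on an epitope-tagged ribosomal protein Rpl22 so that an antibody to the tag brings down ribosomes with the mRNA bound to them. Cre was expressed from the Chat locus, whose product makes acetylcholine, so tagged ribosomes were expected in cholinergic neurons, of which motor neurons are only one kind.

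All mice were 8 weeks old, of one mixed background (B6;CASTxB6.129), and carried 1 tag allele (Rpl+/-). Cre P278KY mice (3 libraries) carried Chat-Cre (Chat+/-) and the P278KY allele of Gars (P278KY+/-), a dominant change in glycyl-tRNA synthetase used as a model of inherited motor neuropathy. Cre WT mice (4 libraries) carried Chat-Cre and normal Gars (P278KY+/+). NoCre P278KY mice (6 libraries) and NoCre WT mice (5 libraries) lacked Cre (Chat+/+), so their libraries hold RNA that was recovered without the tag being switched on. Index sequences and sample numbers start again after the first 10 libraries, which are called library set 1 here, and the other 8 are library set 2. All 3 Cre P278KY libraries are in set 1, whereas 2 of the 4 Cre WT libraries are in set 2.

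Microtubules are polymers of alpha- and beta-tubulin dimers that give an axon its shape and serve as tracks for transport. Each tubulin is encoded by several genes, and the mixture of isotypes differs between cell types. Tubb3 is the isotype used as a marker of neurons, Tubb2a, Tubb2b and Tuba1a are prominent in neurons, and the stathmins bind tubulin dimers and promote disassembly. Stmn2 (SCG10) is enriched in neurons and linked to axon growth and regrowth, and Map1b binds microtubules and is prominent in growing axons.

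Several of these genes have near-identical relatives, which limits how reads can be told apart. The ends of the coding sequences of Tubb2a and Tubb2b are shown because they make visible how little separates a pair that shares reads; each run is 72 bases 5′ to 3′ and ends with the stop codon, and capitals mark the bases that differ between the genes (GENCODE M21, GRCm38).
Tubb2a: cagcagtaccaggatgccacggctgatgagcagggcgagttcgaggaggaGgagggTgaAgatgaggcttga
Tubb2b: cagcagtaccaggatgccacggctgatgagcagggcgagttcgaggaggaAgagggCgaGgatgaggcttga
Over the whole coding sequence Tubb2a and Tubb2b differed at 47 of 1338 bases. Of all 50-base words in the transcript of a gene, 72.9% of those of Tuba1a, 49.6% of those of Tubb2a, 39.3% of those of Tubb2b and 36.5% of those of Stmn1 also occurred in a transcript of another gene. The share was 1.52% for Tuba4a and 0% for Tubb3, Stmn2, Stmn3, Stmn4 and Map1b. The deposited counts, in which a fraction marks reads divided between genes, were fractional in 17 or 18 of the 18 libraries for Tubb2a, Tubb2b, Tuba1a, Tuba4a and Stmn1. They were fractional in 1 library for Tubb3 and in 0 for Stmn2, Stmn3, Stmn4 and Map1b.

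The genes lie apart in the genome except for one pair (GRCm38): Tubb2a at chr13:34074274-34078007 and Tubb2b at chr13:34126748-34130466, both on the minus strand. Tubb3 is at chr8:123411424-123422015 on the plus strand, Tuba1a at chr15:98949837-98953703 and Tuba4a at chr1:75214228-75219865 on the minus strand. The stathmins are on 4 chromosomes, with Stmn1 at chr4:134468320-134473843, Stmn2 at chr3:8509360-8561606 and Stmn4 at chr14:66344296-66361680 on the plus strand, and Stmn3 at chr2:181306459-181314500 on the minus strand. Map1b is at chr13:99421446-99516540 on the minus strand.

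RefSeq start sites (GRCm38.p6) were at hand for 6 of the 10 genes, all 6 of them higher in Cre libraries of both genotypes. The 250 bases before the start are shown for the 3 whose window does not overlap the annotated gene. Capitals mark matches, on either strand, to the TATA box TATAAA, the CCAAT box CCAAT and the GC box GGGCGG, which do not overlap one another here. The regions are chr13:34078009-34078258, chr2:181314501-181314750 and chr13:99516603-99516852, each read from the minus strand.
Tubb2a: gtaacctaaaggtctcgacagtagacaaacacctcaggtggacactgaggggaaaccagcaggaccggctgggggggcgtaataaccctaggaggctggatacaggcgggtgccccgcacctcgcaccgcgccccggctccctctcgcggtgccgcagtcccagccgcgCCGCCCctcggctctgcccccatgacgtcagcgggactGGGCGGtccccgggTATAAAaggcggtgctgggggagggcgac
Stmn3: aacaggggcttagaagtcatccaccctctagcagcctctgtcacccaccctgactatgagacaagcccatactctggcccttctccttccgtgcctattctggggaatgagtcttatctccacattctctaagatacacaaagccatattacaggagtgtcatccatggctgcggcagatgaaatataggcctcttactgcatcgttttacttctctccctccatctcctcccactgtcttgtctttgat
Map1b: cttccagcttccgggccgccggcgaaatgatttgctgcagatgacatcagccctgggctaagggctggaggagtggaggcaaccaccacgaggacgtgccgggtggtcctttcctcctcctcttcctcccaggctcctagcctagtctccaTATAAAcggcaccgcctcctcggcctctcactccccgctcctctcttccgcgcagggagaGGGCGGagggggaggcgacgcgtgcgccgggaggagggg
The Tubb2a window held 1 TATA box and 2 GC boxes, the Map1b window 1 TATA box and 1 GC box, and the Stmn3 window none of the 3 motifs. The windows of Tubb3, Tuba1a and Tuba4a, not shown, held 0 TATA boxes each. They held 1, 1 and 0 CCAAT boxes and 2, 1 and 2 GC boxes in that order. Among 32851 promoter windows of the same length, 12.4% held a TATA box, 33.8% a CCAAT box and 32.7% a GC box.

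Library totals were 15461440 to 18944769 counts for Cre P278KY and 14659488 to 24028649 counts for Cre WT. The NoCre P278KY libraries were shallower, with 9876808 to 14450144 counts, as were those of NoCre WT, with 8177758 to 11480402 counts. Mitochondrial ribosomal RNA made up 2.16% to 4.88% of counts for Cre P278KY and 1.36% to 3.36% for Cre WT, but 24.2% to 38.6% for NoCre P278KY and 31.8% to 53.8% for NoCre WT. Levels are in CPM (counts per 1000000 counts), scaled with the TMM method over the 18 libraries, unless another scale is named. Chat measured 97.8 to 120 CPM for Cre P278KY and 80.9 to 169 CPM for Cre WT, against 1.93 to 3.58 CPM for NoCre P278KY and 5.87 to 12.9 CPM for NoCre WT. All 10 cholinergic motor neuron markers were higher in Cre than in NoCre libraries of either genotype. Gars itself was higher in Cre P278KY (274 ± 23.1 CPM, SD, n = 3) than in Cre WT (139 ± 29.3, n = 4). The log2 fold change was 1.01 (SE 0.19, adjusted p = 0.0219 in edgeR), a call lost when any Cre P278KY library or Cre WT library 4 was left out. A total Gars level does not check which allele was carried.

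**Figure D1:**
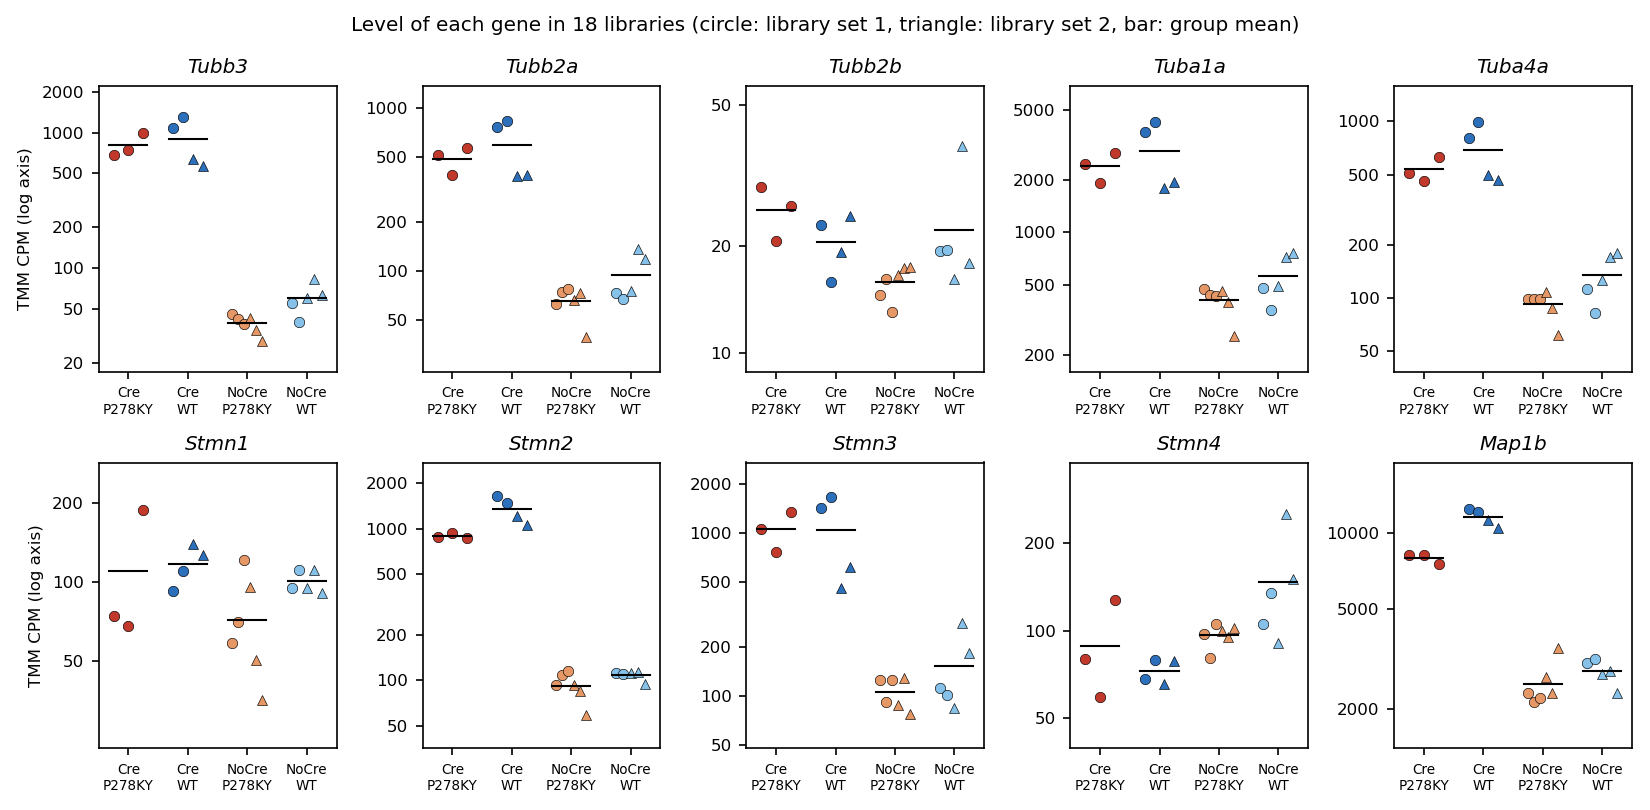
Level of each of the 10 genes in every library, in TMM CPM on a log axis, for Cre P278KY, Cre WT, NoCre P278KY and NoCre WT; circles are library set 1, triangles library set 2 and bars group means. Tubb3, Tubb2a, Tuba1a, Tuba4a, Stmn2, Stmn3 and Map1b stand higher in every Cre library than in any NoCre library of the same genotype, whereas Stmn1, Stmn4 and Tubb2b do not separate that way in WT mice.

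Across genes, levels are compared per transcript length in the deposited TPM (transcripts per 1000000 transcripts). In Cre P278KY libraries Tuba1a was at 2276 ± 184 TPM (SD, n = 3), Stmn3 at 1510 ± 43.1, Map1b at 1000 ± 301, Stmn2 at 757 ± 238, Tubb3 at 678 ± 129, Tubb2a at 485 ± 45.4 and Tuba4a at 401 ± 49.4. In Cre WT libraries Tuba1a was at 2510 ± 217 TPM (SD, n = 4), Map1b at 1424 ± 538, Stmn3 at 1292 ± 262, Stmn2 at 1087 ± 343, Tubb3 at 687 ± 115, Tubb2a at 536 ± 58.8 and Tuba4a at 479 ± 76.5. Tuba1a was the most abundant in each of the 7 Cre libraries, and Map1b, Stmn3 and Stmn2 could not be ordered beyond their spread in Cre WT. Stmn1, Stmn4 and Tubb2b were far lower, at 162 ± 56.5, 105 ± 13 and 20.6 ± 4.05 TPM in Cre P278KY and 201 ± 117, 91.4 ± 35.2 and 17.3 ± 7.89 TPM in Cre WT. In NoCre P278KY libraries Tuba1a (465 ± 187 TPM, n = 6) and Map1b (330 ± 95.7) were the highest, and Tubb3 (37.8 ± 16.2) and Tubb2b (14.2 ± 4.98) the lowest. NoCre WT libraries gave the same 2 highest and 2 lowest genes, with Tuba1a at 414 ± 142 TPM, Map1b at 289 ± 132, Tubb3 at 39.5 ± 16 and Tubb2b at 13.3 ± 3.2 (n = 5).

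The first question was which of these mRNAs were recovered with tagged ribosomes of cholinergic neurons, by comparing Cre with NoCre libraries of one genotype. In P278KY mice 8 of the 10 genes were higher in Cre libraries and none was lower in edgeR. Among all 17133 genes tested there, 59.4% were called, 28.2% higher and 31.2% lower. In WT mice 7 of the 10 were higher and 1, Stmn4, was lower, beside 59.7% of all genes called, 28.5% higher and 31.2% lower. The median log2 fold change of the 10 genes was 2.54 in P278KY and 2.37 in WT mice, beside -0.13 and -0.12 over all genes. Cre and NoCre libraries did not overlap for 8 of the 10 genes in each genotype. Of all genes, 28.3% lay entirely higher and 27.9% entirely lower in Cre libraries of P278KY mice, and 22.5% and 20.7% in those of WT mice. These fold changes compare libraries with the tag switched on with libraries recovered without it. They cannot tell the number of tagged neurons from the RNA of each neuron.

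Among the beta-tubulins, Tubb3 had the largest fitted fold change of the 10 in either genotype, although within library set 2 of WT mice that of Stmn2 was larger (log2 3.41 against 3.13). It stood at 690, 750 and 1003 CPM in the 3 Cre P278KY libraries, against 29.1 to 46.2 CPM (median 40.7) in the 6 NoCre P278KY libraries. In WT mice it stood at 1077, 1306, 640 and 571 CPM in Cre libraries, against 55.5, 39.8, 60.4, 82.7 and 63.2 CPM in NoCre libraries. The lowest Cre value was many times the highest NoCre value in either genotype. The level was 20.8-fold higher in Cre libraries of P278KY mice (log2 4.38, SE 0.25, adjusted p = 2.12e-11) and 14.9-fold higher in those of WT mice (log2 3.90, SE 0.25, adjusted p = 1.49e-10). Tubb2a, a major beta-tubulin of adult brain, was at 512, 389 and 566 CPM in Cre P278KY against 39.4 to 77.8 CPM in NoCre P278KY. In WT mice it was at 761, 836, 383 and 389 CPM in Cre WT against 67.5 to 136 CPM in NoCre WT. It rose 7.44-fold (log2 2.89, SE 0.27) and 6.27-fold (log2 2.65, SE 0.27). It was clearly separated in both genotypes. Tubb2b, a close copy associated with the developing nervous system, was far less abundant. It was at 29.4, 20.7 and 25.9 CPM in Cre P278KY against 13.1 to 17.4 CPM in NoCre P278KY, a rise of 0.68 on the log2 scale (SE 0.24, adjusted p = 0.0208). In WT mice the groups overlapped, at 15.8 to 24.3 CPM in Cre and 16.1 to 38.3 CPM in NoCre libraries (log2 -0.10, SE 0.24, adjusted p = 0.724). The Tubb2b call in P278KY mice was lost under 3 other scalings (adjusted p between 0.0562 and 0.529), with the prefix of the mouse number in the labels as a block (log2 0.24, adjusted p = 0.562) and without Cre P278KY library 1 (0.103) or library 3 (0.0503).

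Tuba1a and Tuba4a rose by nearly the same amount. Tuba1a, an alpha-tubulin prominent in neurons, was at 2458, 1918 and 2826 CPM in Cre P278KY against 258 to 473 CPM in NoCre P278KY. The WT values were 3719, 4249, 1780 and 1931 CPM in Cre WT against 359 to 759 CPM in NoCre WT. Tuba4a, an alpha-tubulin whose mutation is known in human amyotrophic lateral sclerosis, was at 512, 462 and 630 CPM in Cre P278KY against 61.7 to 108 CPM in NoCre P278KY. In WT mice it was at 809, 986, 497 and 463 CPM in Cre WT against 82 to 180 CPM in NoCre WT. No Cre library of either gene reached down to a NoCre library of its genotype. The log2 fold changes in P278KY mice were 2.54 (SE 0.26) for Tuba1a and 2.53 (SE 0.25) for Tuba4a, and in WT mice 2.38 (SE 0.27) and 2.35 (SE 0.25). With the reads of Tuba1a, Tuba1b and Tuba1c counted together the log2 fold change was 2.82 in P278KY and 2.44 in WT mice. With Tubb2a and Tubb2b together it was 2.66 and 2.39. These sums give the direction of each group but cannot decide that of a single gene, because another member can carry the sum. Tuba1b alone rose by 3.11 in P278KY mice, and Tubb2b alone was at -0.10 in WT mice although its group rose. Other genes that share words with Tuba1a or Tubb2a were not part of the sums.

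The stathmins split into a pair that rose and a pair that did not. Stmn2 was at 880, 944 and 868 CPM in Cre P278KY against 58.8 to 115 CPM in NoCre P278KY. Its WT values were 1654, 1476, 1222 and 1064 CPM in Cre WT against 94.4 to 113 CPM in NoCre WT. Stmn3, a neuronal stathmin also called SCLIP, was at 1071, 768 and 1355 CPM in Cre P278KY against 78.3 to 129 CPM in NoCre P278KY. In WT mice it was at 1423, 1670, 460 and 621 CPM in Cre WT against 84.7 to 284 CPM in NoCre WT. Neither gene overlapped between Cre and NoCre libraries, with Stmn2 9.74-fold and 12.5-fold higher and Stmn3 9.98-fold and 6.8-fold higher in P278KY and WT mice. Stmn1, the stathmin also expressed outside neurons, was at 74.6, 68.1 and 187 CPM in Cre P278KY against 35.6 to 121 CPM in NoCre P278KY. WT libraries had 92.9 to 140 CPM in Cre WT against 90.9 to 111 CPM in NoCre WT. These ranges overlapped, and neither difference passed the test (log2 0.61, SE 0.31, adjusted p = 0.0967, and 0.22, SE 0.30, adjusted p = 0.536). The log2 fold change in P278KY mice ran from 0.00033 to 0.87 as single libraries were left out, and passed without NoCre P278KY library 3 (adjusted p = 0.0223) or Cre P278KY library 2 (0.0395). Stmn4 (RB3) was at 79.7, 59.1 and 127 CPM in Cre P278KY against 80.7 to 105 CPM in NoCre P278KY (log2 -0.12, SE 0.26, adjusted p = 0.691), and at 67.9, 79, 65.6 and 78.5 CPM in Cre WT against 106, 135, 90.7, 253 and 151 CPM in NoCre WT. In WT mice all Cre libraries lay below all NoCre libraries, with a fall of 1.01 on the log2 scale (SE 0.25, adjusted p = 0.0015) that did not pass when libraries were scaled by size alone (-0.54, adjusted p = 0.145).

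Map1b, whose transcript is 11852 bases long in the files, had the highest CPM of the 10. It was at 8156, 8127 and 7507 CPM in Cre P278KY against 2143 to 3482 CPM in NoCre P278KY. In WT mice the level was 12403, 12021, 11196 and 10460 CPM in Cre WT against 2329 to 3166 CPM in NoCre WT. The groups were widely apart in both genotypes, with log2 fold changes of 1.65 (SE 0.16, adjusted p = 4.35e-08) and 2.03 (SE 0.16, adjusted p = 2.42e-09).

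**Figure D2:**
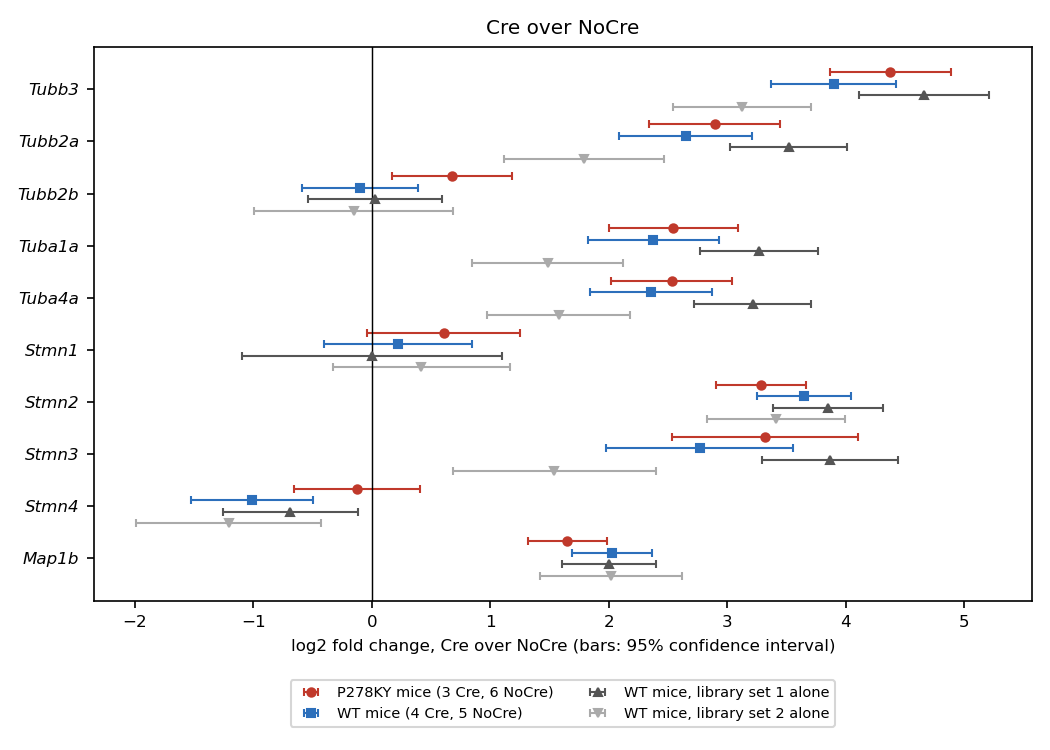
Log2 fold change of Cre over NoCre libraries for each gene with 95% confidence intervals, in P278KY mice, in WT mice, and in WT mice within library set 1 and within library set 2. Tubb3 has the largest change in P278KY mice (4.38), and the WT values of Tubb3, Tubb2a, Tuba1a, Tuba4a and Stmn3 are larger in set 1 than in set 2, those of Map1b nearly equal (2.00 and 2.02).

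The size of the difference in WT mice differed between the library sets for 5 genes. The 2 Cre WT libraries of set 2 share a mouse-number prefix that those of set 1 lack, so set and prefix cannot be told apart there. Within set 1 the log2 fold change was 4.66 for Tubb3, 3.52 for Tubb2a, 3.27 for Tuba1a, 3.21 for Tuba4a and 3.87 for Stmn3. Within set 2 it was 3.13, 1.79, 1.48, 1.58 and 1.54 for the same genes in that order. All 5 remained higher in Cre within each set (adjusted p of 0.0119 or below), as did Stmn2 (3.85 and 3.41) and Map1b (2.00 and 2.02), and Stmn4 remained lower (-0.69, adjusted p = 0.0373, and -1.21, adjusted p = 0.0244). In P278KY mice the values within set 1 were 4.29 for Tubb3, 2.81 for Tubb2a, 2.45 for Tuba1a, 2.47 for Tuba4a and 3.25 for Stmn3. Each was below that of WT mice within set 1, whereas over both sets each was above that of WT mice. The genotype by Cre difference within set 1 passed for none of these 5 in edgeR (adjusted p from 0.122 to 0.529). Markers of several other cell types also differed between the sets within Cre WT. The summed level of 10 oligodendrocyte markers was 3859 and 4275 CPM in the 2 Cre WT libraries of set 2, 764 and 1217 CPM in those of set 1, 719 to 1805 CPM in Cre P278KY, and 8325 to 13427 CPM in NoCre libraries. The sum of 8 astrocyte markers was 1218 to 1496 CPM in the Cre WT libraries of set 2, 447 to 662 CPM in those of set 1, 558 to 1025 CPM in Cre P278KY and 2260 to 3739 CPM in NoCre libraries. The 8 vascular markers summed to 139 and 166 CPM in set 2 and 29.7 and 30.1 CPM in set 1 of Cre WT, with 29.2 to 61.8 CPM in Cre P278KY. The 8 markers of other spinal neurons summed to 279 and 354 CPM in set 2 and 113 and 138 CPM in set 1 of Cre WT, with 211 to 294 CPM in Cre P278KY. The 9 microglial markers overlapped between the sets, at 29.6 and 30.7 CPM in set 2 and 23.7 and 38.3 CPM in set 1 of Cre WT, with 28.7 to 43.9 CPM in Cre P278KY. No marker of any list was at 0 in all libraries of a group, and the part of these levels in the results was not tested.

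The other microtubule genes were taken from 9 lists with 103 gene entries, of which 98 could be tested. A symbol counts once for each gene identifier that carries it. In P278KY mice 54 were higher and 21 lower in Cre libraries, where 28.2% of all genes tested were higher and 31.2% lower. In WT mice 54 were higher and 18 lower, where 28.5% of all genes were higher and 31.2% lower. Of 19 chaperones and cofactors of tubulin folding, 18 were higher in P278KY and 17 in WT mice and none was lower, with Tbca, which binds folded beta-tubulin, at 119 ± 18.2 CPM in Cre P278KY against 17.8 ± 3.9 in NoCre P278KY (log2 2.74) and 104 ± 42.2 in Cre WT against 16.5 ± 2.14 in NoCre WT (log2 2.66). All 4 other beta-tubulins tested rose in both genotypes, with Tubb5 at 580 ± 42.3 CPM in Cre P278KY against 91.4 ± 9.51 in NoCre P278KY (log2 2.66) and 453 to 861 CPM in Cre WT against 77.4 to 119 in NoCre WT (log2 2.68). Of 20 enzymes that modify tubulin, 6 were higher and 9 lower in P278KY mice and 5 higher and 7 lower in WT mice. Ttl, the ligase that restores the terminal tyrosine of alpha-tubulin, rose by 1.38 and 1.78 on the log2 scale in P278KY and WT mice, while Ttll4, a glutamylating enzyme, fell by 2.22 in P278KY mice and Agbl2, a cytosolic carboxypeptidase, fell by 3.48 in WT mice. Of 17 structural microtubule-associated proteins, 10 were higher and 5 lower in P278KY and 9 higher and 4 lower in WT mice, among them Map7d2 (log2 2.34 and 1.78) and Map7 (log2 -2.05 and -2.22). Of 17 gene entries for proteins that bind microtubule ends, 9 and 10 were higher and 5 in each genotype lower. Mapre3, a plus-end binding protein of neurons, changed by 2.37 and 2.43 and Nav2 by -2.78 and -2.5 on the log2 scale. Of 5 collapsin response mediators, which bind tubulin dimers, 3 rose in P278KY mice, and 4 rose and 1 fell in WT mice, with Dpysl3 higher by 1.51 in P278KY and 1.86 in WT mice on the log2 scale. The lists of other tubulins and of severing proteins gave 1 and 2 of 4 gamma, delta and epsilon tubulins higher, and 1 severing protein of 9 higher in each genotype with 2 and 1 lower. The 2 lower calls among severing proteins in P278KY mice became 1 or 0 when any single library other than NoCre P278KY library 4 was left out, and the 1 in WT mice was lost without Cre WT library 1 or 2 or NoCre WT library 3. Without Cre WT library 2 or NoCre WT library 2, 1 of the gamma, delta and epsilon tubulins was higher in WT mice.

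For beta-tubulins, alpha-tubulins and stathmins, the mRNA of each gene was also compared as a share of its family in TPM, which does not depend on scaling between libraries. Tubb3 made up 21.8% ± 2.49 (SD, n = 3) of beta-tubulin TPM in Cre P278KY against 4.09% ± 0.799 (n = 6) in NoCre P278KY, and 19.3% ± 2.37 (n = 4) in Cre WT against 5.86% ± 0.756 (n = 5) in NoCre WT, with no overlap in either genotype. Tubb4a, the beta-tubulin prominent in oligodendrocytes, was the largest part of NoCre libraries, at 66.8% ± 4.98 in NoCre P278KY and 59.1% ± 7.78 in NoCre WT, against 28.9% ± 0.776 in Cre P278KY and 31.1% ± 8.59 in Cre WT. Stmn2 made up 29.6% ± 7.31 of stathmin TPM in Cre P278KY against 16.1% ± 2.12 in NoCre P278KY, and 40.1% ± 8.30 in Cre WT against 14.4% ± 3.93 in NoCre WT, again without overlap. Stmn3 was the largest part of stathmin TPM in every group by its mean. Stmn4 took only 4.16% ± 0.760 in Cre P278KY and 3.40% ± 1.19 in Cre WT, beside 26.4% ± 5.4 in NoCre P278KY and 27.2% ± 3.27 in NoCre WT. Tuba1a made up 40.7% ± 3.57 of alpha-tubulin TPM in Cre P278KY, 44.6% ± 2.35 in Cre WT, 48.3% ± 1.43 in NoCre P278KY and 46.4% ± 4.02 in NoCre WT. Tuba1b made up 48.3% ± 7.34, 45.0% ± 5.49, 39.0% ± 4.58 and 43.0% ± 6.99 in the same order. The share of Tuba4a among alpha-tubulins overlapped between all groups, at 7.18% ± 0.853 in Cre P278KY, 8.49% ± 0.905 in Cre WT, 8.25% ± 0.748 in NoCre P278KY and 8.75% ± 0.922 in NoCre WT.

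Shares of Tubb3, Tuba4a and Stmn2 were tested with two-sided exact permutation tests, adjusted over 12 tests (3 shares in 4 comparisons). The Tubb3 and Stmn2 shares gave the smallest p the designs allow for Cre over NoCre, 0.0238 in P278KY (3 against 6 libraries) and 0.0159 in WT mice (4 against 5), which is an adjusted p of 0.0571 in this exact permutation test and did not pass. The Tubb3 share was also lower in NoCre P278KY than in NoCre WT without overlap (4.09% against 5.86%, exact permutation p = 0.00433, adjusted p = 0.0519), which did not pass either. That p is the smallest that 6 against 5 libraries allow, and a single p at this limit cannot pass after adjustment over 12 tests. Between Cre P278KY and Cre WT no share passed (adjusted p of the exact permutation test 0.305 for Tubb3, 0.257 for Stmn2 and 0.196 for Tuba4a), and 3 against 4 libraries cannot go below an unadjusted p of 0.0571. The TPM of Tuba1c ran from 0.79 to 299 among the Cre P278KY libraries and from 1.99 to 299 among the Cre WT libraries, so its split from Tuba1b is uncertain.

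**Figure D3:**
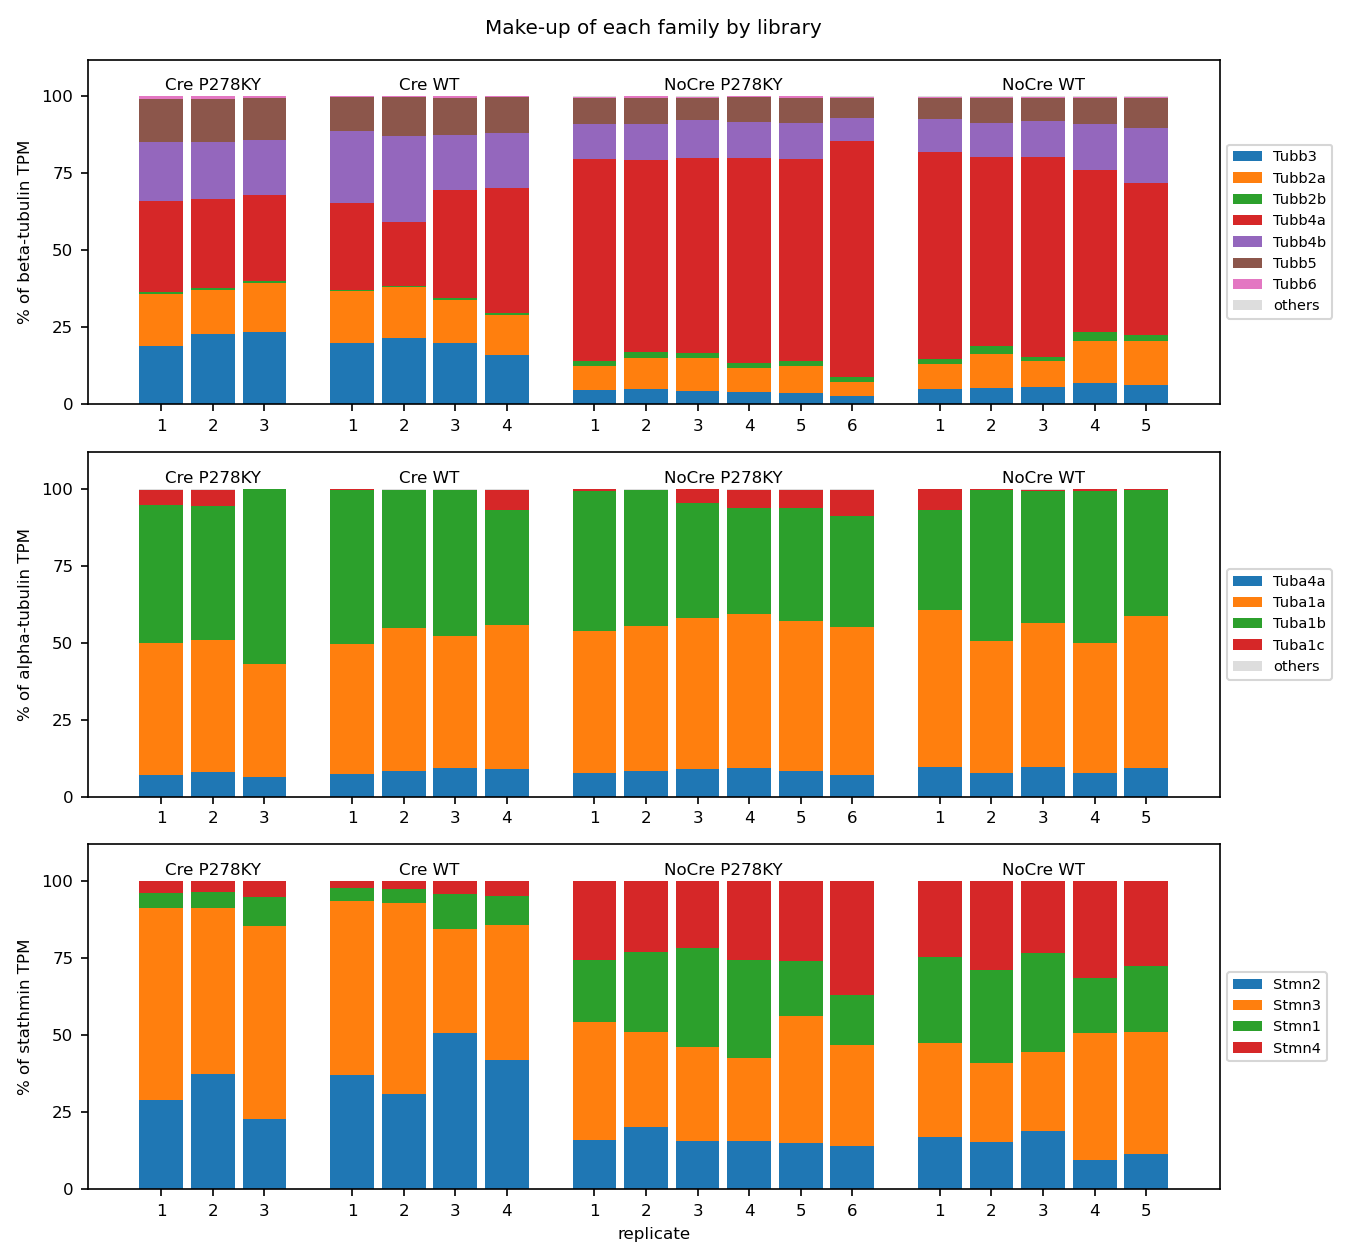
Share of each gene in the TPM of its family, in percent, for every library of the 4 groups: beta-tubulins (top), alpha-tubulins (middle) and stathmins (bottom), with minor members as "others". Tubb3 forms 21.8% and 19.3% of beta-tubulin in Cre P278KY and Cre WT, against 4.09% and 5.86% in NoCre P278KY and NoCre WT, where Tubb4a is the largest part.

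The second question was whether the P278KY allele changed these mRNAs in tagged neurons. None of the 10 genes was called between Cre P278KY and Cre WT in edgeR, where 2.32% of 14717 genes were called (1.22% higher and 1.11% lower). An unadjusted p under 0.05 was found for 2 of the 10, Stmn2 and Map1b, and for 16.2% of all genes. Both lay lower in every Cre P278KY library than in any Cre WT library, where 8.45% of all genes lay entirely lower and 8.2% entirely higher. The other 8 overlapped between genotypes, with log2 fold changes from -0.33 for Tuba4a to 0.31 for Tubb2b. The median over the 10 genes was -0.17, beside -0.01 over all genes. Marker sums of 2 other cell types were also lower in every Cre P278KY library than in any Cre WT library. The 5 Schwann cell and nerve root markers summed to 180 to 238 CPM in Cre P278KY and 350 to 495 CPM in Cre WT, and 2 of them were called lower. The 8 skeletal muscle markers summed to 5.3 to 10.9 CPM in Cre P278KY and 21.9 to 124 CPM in Cre WT, and 0 of them were called. The part of these levels in the differences was not tested.

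Stmn2 was at 880, 944 and 868 CPM in Cre P278KY against 1654, 1476, 1222 and 1064 CPM in Cre WT. The difference was -0.56 on the log2 scale (SE 0.19, 95% interval -0.97 to -0.15, adjusted p = 0.172), and it was below 0 in all other fits tried. Map1b was at 8156, 8127 and 7507 CPM in Cre P278KY against 12403, 12021, 11196 and 10460 CPM in Cre WT, a difference of -0.51 (SE 0.17, 95% interval -0.88 to -0.14, adjusted p = 0.167). DESeq2 called Map1b (adjusted p = 0.0271) but not Stmn2 (0.0689). Per length and without TMM scaling, the groups overlapped: Stmn2 was at 717, 1013 and 542 TPM in Cre P278KY against 984, 763, 1571 and 1030 TPM in Cre WT, and Map1b at 992, 1305 and 704 TPM in Cre P278KY against 1107, 934, 2144 and 1513 TPM in Cre WT. The ratio of Map1b to its relative Map1a within a library, chosen after the values were seen, was 3.71 to 4.24 in Cre P278KY and 4.5 to 5.28 in Cre WT on the TPM scale. Map1a itself was at 1825, 1711 and 1756 CPM in Cre P278KY and 2216, 2221, 1935 and 1893 CPM in Cre WT (log2 -0.20, SE 0.16, adjusted p = 0.597).

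Of the tubulins and Stmn3, 5 genes varied more between the library sets within Cre WT than between the genotypes. The mouse-number prefixes of those sets also differ within Cre WT. Stmn3 was at 1423 and 1670 CPM in the Cre WT libraries of set 1 and 460 and 621 CPM in those of set 2, with the 3 Cre P278KY libraries, all of set 1, in between at 768 to 1355. The mean of set 2 over that of set 1 within Cre WT was 0.35 for Stmn3, 0.47 for Tuba1a, 0.48 for Tubb2a, 0.51 for Tubb3 and 0.53 for Tuba4a, but 0.73 for Stmn2, 0.89 for Map1b and 0.98 for Stmn4. Cholinergic marker sums followed the same split, at 3367 and 3064 CPM in the Cre WT libraries of set 1 and 2095 and 1895 CPM in those of set 2, with 2079, 1936 and 1608 CPM in Cre P278KY. The part of the marker levels in these differences was not tested.

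Within set 1 alone (3 Cre P278KY against 2 Cre WT libraries) all 7 genes that rose in Cre libraries of both genotypes were lower in Cre P278KY by estimate, and 1 passed the test. Stmn2 passed (-0.73, SE 0.18, adjusted p = 0.0313), where 9.1% of 14753 genes were called. The other estimates were -0.67 for Tuba4a (adjusted p = 0.0527), -0.66 for Tuba1a (0.0605), -0.63 for Tubb2a (0.0724), -0.55 for Map1b (0.0729), -0.48 for Tubb3 (0.166) and -0.47 for Stmn3 (0.228). With library set as a term in the fit of the 7 libraries, 4 genes were called lower, Stmn2 (adjusted p = 0.0188), Tuba4a (0.0337), Tuba1a (0.0437) and Map1b (0.0479), where 11.4% of all genes were called. No Cre P278KY library belongs to set 2, so these values compare the genotypes on the 2 Cre WT libraries of set 1 alone. With the mouse-number prefix as a block instead, Stmn3 was called higher in edgeR (1.13, adjusted p = 0.00615), where 11.3% of all genes were called. Tubb3 (0.45), Tubb2a (0.46), Tuba1a (0.48) and Tuba4a (0.22) were then above 0, while Stmn2 and Map1b stayed below 0. That block links Cre P278KY libraries of set 1 with Cre WT libraries of set 2.

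**Figure D4:**
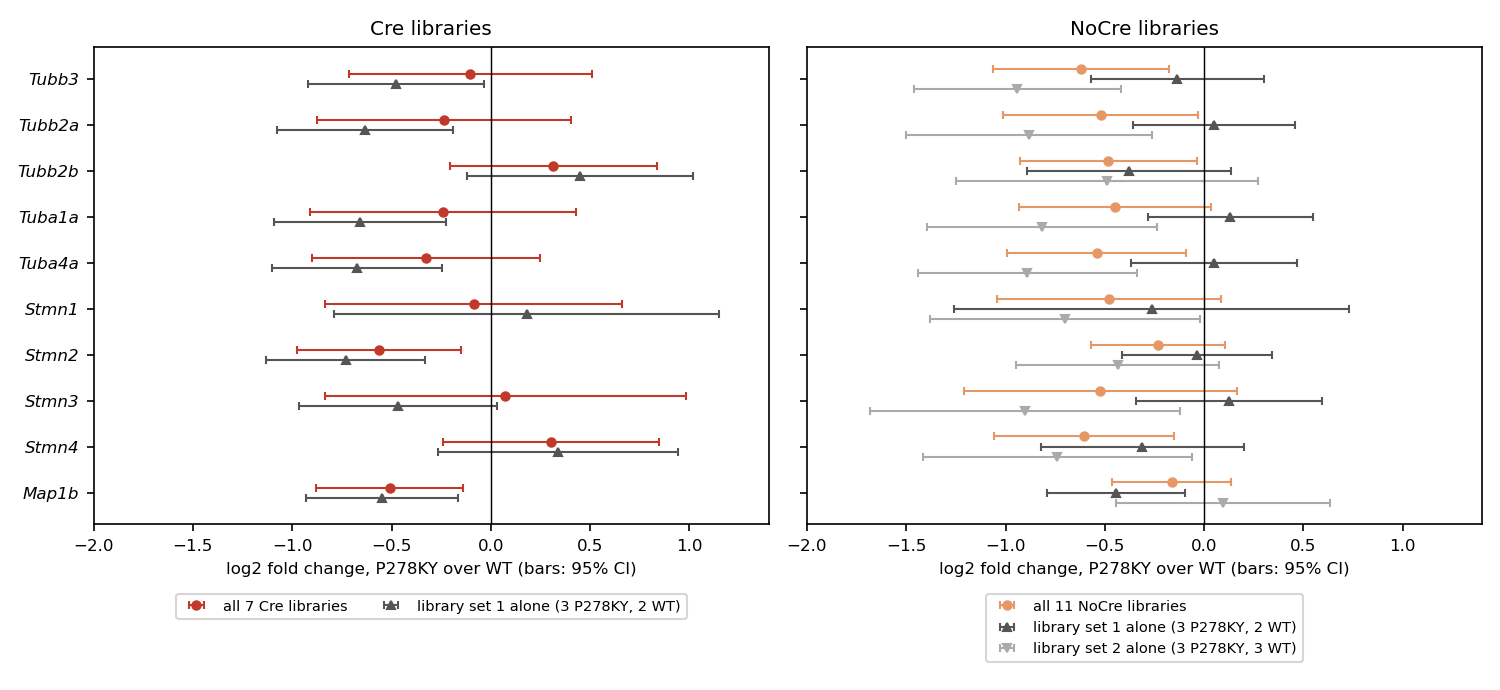
Log2 fold change of P278KY over WT for each gene with 95% confidence intervals, among Cre libraries (left: all 7, and library set 1 alone) and among NoCre libraries (right: all 11, set 1 alone and set 2 alone). Stmn2 (-0.56) and Map1b (-0.51) are the largest falls by estimate among all 7 Cre libraries, and within set 1 the estimates of Tubb3, Tubb2a, Tuba1a, Tuba4a and Stmn3 lie lower than in all 7.

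**Figure D5:**
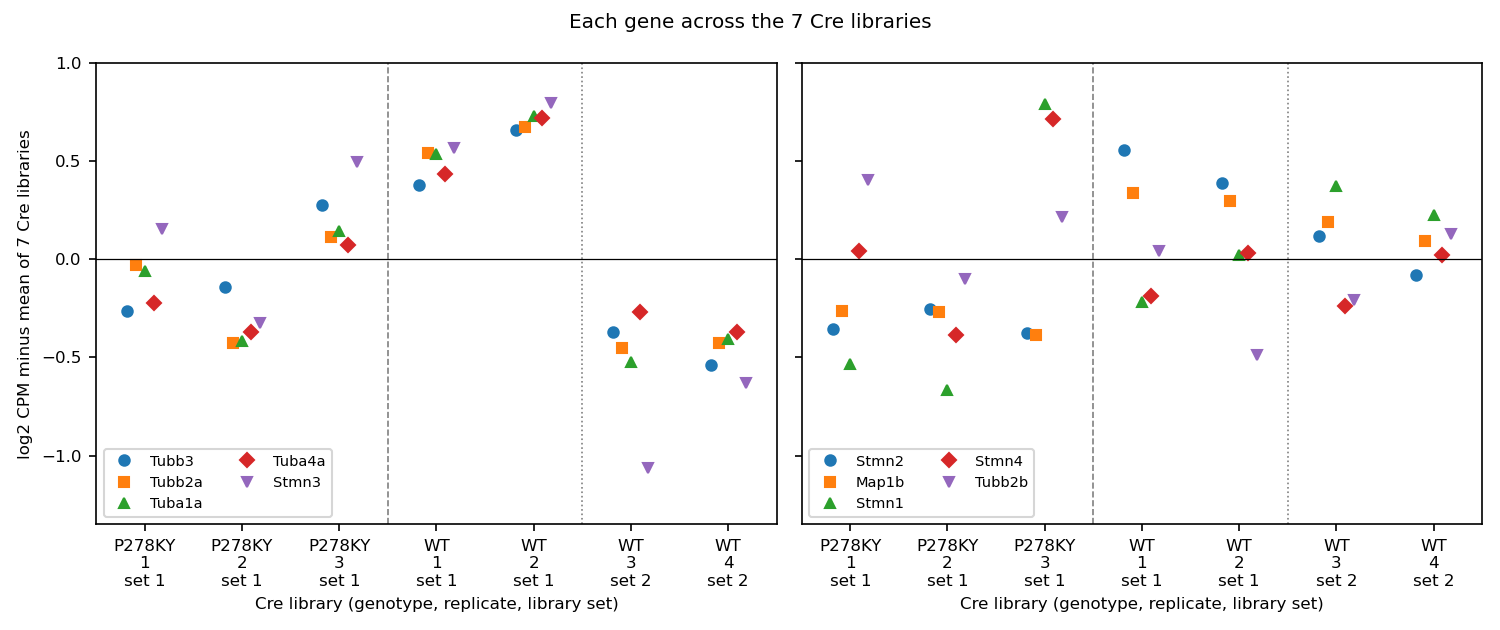
Log2 CPM of each gene minus its mean over the 7 Cre libraries, for Cre P278KY 1 to 3 and Cre WT 1 to 4; the dashed line separates genotypes and the dotted line library set 1 from set 2 within Cre WT. Tubb3, Tubb2a, Tuba1a, Tuba4a and Stmn3 (left) are above 0 in Cre WT libraries 1 and 2 and below 0 in libraries 3 and 4, whereas Map1b (right) is above 0 in all 4.

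Of the 97 entries of other microtubule genes tested between Cre P278KY and Cre WT, 1 was called (1.03%, beside 2.32% of all genes). Tubb6, a beta-tubulin of broad expression outside neurons, was at 31, 30.2 and 20.4 CPM in Cre P278KY against 7.29, 13.9, 11 and 9.34 CPM in Cre WT, with no overlap. It rose by 1.43 on the log2 scale (SE 0.26, adjusted p = 0.0181), a call lost without Cre P278KY library 1 or 2 (adjusted p 0.145 and 0.101) and with libraries scaled by size (0.114). It made up 0.802% ± 0.254 of beta-tubulin TPM in Cre P278KY and 0.258% ± 0.0909 in Cre WT.

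Among NoCre libraries none of the 10 genes was called between P278KY and WT in edgeR or in any alternative fit, where 0.0233% of all 17133 genes were called, all of them lower. An unadjusted p under 0.05 was found for 5 of the 10 genes and for 6.77% of all genes. All 10 estimates were below 0, from -0.62 for Tubb3 to -0.16 for Map1b, with a median of -0.50 beside -0.01 over all genes, and every gene overlapped between the groups, where 0.339% of all genes lay entirely higher and 0.379% entirely lower in NoCre P278KY. Tubb3 was at 29.1 to 46.2 CPM in NoCre P278KY (median 40.7) against 39.8 to 82.7 CPM in NoCre WT (adjusted p = 0.687). Stmn4 was at 80.7 to 105 CPM in NoCre P278KY against 90.7 to 253 CPM in NoCre WT (log2 -0.60, SE 0.22, adjusted p = 0.687). Within set 2 the estimates of Tubb3 (-0.94), Stmn3 (-0.90), Tuba4a (-0.89) and Tubb2a (-0.88) were lower still, and within set 1 those of Tubb2a, Tuba1a, Tuba4a and Stmn3 were above 0 (0.049 to 0.13). Scaling by library size alone moved the median of all genes to 0.35 and 6 of the 10 estimates above 0. NoCre WT libraries 4 and 5, with the lowest shares of protein-coding counts in that group (23% and 33.8%), were the 2 highest in NoCre WT for Tubb3, Tubb2a, Tuba1a, Tuba4a, Stmn3 and Stmn4, and the part of that share in the values was not tested. The 10 cholinergic motor neuron markers summed to 60.8 to 80.5 CPM in NoCre P278KY and 103 to 127 CPM in NoCre WT, with no overlap. Chat was among the genes called lower in NoCre P278KY (log2 -1.45, SE 0.25, adjusted p = 0.034), a call lost without NoCre P278KY library 1, 2, 3, 4 or 5 or NoCre WT library 1 or 5, within either library set, under both scalings by library size, with the mouse-number prefix as a block and in limma. The part of these markers in the differences of the 10 genes was not tested.

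The difference of the genotype effect between Cre and NoCre libraries was not called for any of the 10 genes in edgeR, where 0.654% of all genes were called (0.344% higher and 0.309% lower). The estimates ran from -0.38 for Map1b to 0.89 for Stmn4, and 2 of the 10 had an unadjusted p under 0.05, Stmn4 (adjusted p = 0.314) and Tubb2b (0.389), as had 11.1% of all genes.

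The genes most like each of the 10 across the 18 libraries were sought among 7850 genes with a mean log2 CPM above 3, by the mean absolute difference of log2 CPM after centring each gene. Tuba1a and Tuba4a were each other's closest match, at 0.07 log2 units. Of their 50-base words, 72.9% in Tuba1a and 1.52% in Tuba4a are shared with another gene, and counts of both were fractional in 18 libraries. The part of divided reads in this match was not tested. Tubb2a was nearest to Esd (0.15) and the mitochondrial creatine kinase gene Ckmt1 (0.16), and Map1b to the endoplasmic reticulum shaping protein Reep5 (0.16). Stmn2 was nearest to Spp1 (0.22), which encodes osteopontin, and Anxa6 (0.23), and Stmn3 to the redox protein Txn1 (0.21) and to Hint1 (0.22). Tubb3 had no close match: its nearest genes were those of the chaperone factors Bag3 (0.30) and Hspb1 (0.31). Tubb2b was nearest to Tbcel, a tubulin cofactor-like gene (0.16), Stmn4 to Acin1 (0.17) and Stmn1 to Pink1 (0.28).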

How the data were processed

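Ribosome-bound RNA of 18 spinal cord libraries was sequenced. Per the submitters' processing notes the tools were Bowtie2 2.2.0 and RSEM 1.2.12; build and annotation: not given in the sources used here. The authors deposited, for each library, RSEM expected counts per gene with effective lengths, TPM and FPKM. The deposited FPKM values were not used, and the deposited TPM values, which RSEM scales by length and library, were used only for levels between genes and for family shares. Expected counts divide reads that fit several genes between them. They were whole for 83% to 87.4% of rows (tolerance 0.005) and were rounded, which changed a library total by at most 0.00096%.

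Libraries were grouped by the genotype in the labels, and replicate numbers follow accession order. The labels do not say that libraries of a group come from separate mice beyond their mouse names, so p-values measure the spread between these libraries. Counts were tested with edgeR 4.0.16 (R 4.3.3; quasi-likelihood, robust, TMM scaling, filterByExpr, two-sided, Benjamini-Hochberg adjustment over all genes, threshold 0.05). The Cre genotype difference came from the 7 Cre libraries, and the other comparisons from the fit of 18. Log2 CPM used a prior count of 2. The procedure was also run on simulated counts with known changes in some genes. Those counts held no difference between library sets and none between groups in the other genes. That run therefore cannot show how calls behave under the differences present here. Of 38924 genes, 37607 matched GENCODE M21 (GRCm38), which gave coordinates and sequences, and 1317 did not. Alternatives were other scalings, no filter, DESeq2 1.42.0, limma 3.58.1 (voom), library set as a term or alone, mouse-number prefix as a block, the 18-library fit for the Cre genotype difference, single libraries left out, and, chosen after seeing the data, near-identical genes summed and removal of libraries with low protein-coding shares. The gene lists, the members and the tests were chosen with earlier results of these data known. Up to 3 other genes per list and comparison are named, those called with the smallest adjusted p, plus fixed isotypes and the 2 most similar genes per member. Marker lists for microglia, vascular cells, other spinal neurons, Schwann cells and skeletal muscle were also summed.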

Additional observations from a re-analysis of the deposited data

Results flagged for a closer look

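The levels of the 10 genes and 3 family shares were examined in the groups of 4, 5 and 6 libraries. Of these 39 sets of values, 4 held a library whose gap to its nearest neighbour was large for the range of its group (Dixon's test), where chance gives about 1 in 20. Tubb2b stood at 38.3 CPM in NoCre WT library 4, above 16.1 to 19.5 CPM in the other 4 libraries of that group. Tuba1a stood at 258 CPM in NoCre P278KY library 6, below 402 to 473 CPM in the other 5. Stmn2 stood at 94.4 CPM in NoCre WT library 5, below 109 to 113 CPM in the other 4. The share of Stmn2 in stathmin TPM was 20.1% in NoCre P278KY library 2, beside a group mean of 16.1% ± 2.12. NoCre P278KY library 6 and NoCre WT libraries 4 and 5 had the lowest protein-coding shares of their groups (37.5%, 23% and 33.8% of counts), and the part of this in the values was not tested.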

How the results depend on the processing

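Over the alternatives, 998 results for the 10 genes kept their direction and side of the threshold, 56 changed sign, 9 came to pass and 7 ceased to pass; the cause was not tested. All sign changes were in estimates that had not passed. The precision of the Cre genotype difference is limited by 3 and 4 libraries.

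Cre genotype difference, genes called of all tested (342): library size only 148, library size without mitochondrial ribosomal RNA 157, DESeq2 972, library set as a covariate 1676, library set 1 alone 1343. Members lower came to 1 with DESeq2, 4 with the covariate and 1 in set 1 alone. Signs turned for Tubb3 (0.013 without mitochondrial ribosomal RNA), Stmn1 (0.18 with the covariate, 0.18 in set 1), Stmn3 (-0.47 and -0.47) and Rpl22 (-0.17 and -0.17).

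Deviations of same-prefix libraries in different groups and different library sets correlated at a median of -0.0015 (11 pairs), and those of 1 such pair within a set at -0.019. Same-prefix libraries within a group were not compared, so these values cannot decide whether libraries of one prefix are alike. With the prefix as replicate block, 1664 genes were called in the Cre genotype difference, 1 member was higher (Stmn3, 1.13, adjusted p = 0.00615), and Tubb3 (0.45), Tubb2a (0.46), Tuba1a (0.48), Tuba4a (0.22) and Chat (0.35) turned positive. That block links Cre P278KY libraries of set 1 with Cre WT libraries of set 2. Under the block Stmn1 was -0.11 in WT enrichment, and in the NoCre genotype difference 2 genes were called and Stmn3 was 0.35.

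WT enrichment: with library size only, 0 members were lower and Tubb2b was 0.35; 4955 genes were called in library set 2 alone, where Rpl22 was -0.0082. Tubb2b was 0.0093 with no filter on low counts, 0.0058 with limma-voom, 0.028 in library set 1 alone and 0.14 without NoCre WT libraries 4 and 5 together. Stmn1 was -0.13 without mitochondrial ribosomal RNA and -9.5e-05 in library set 1 alone.

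NoCre genotype difference (4 genes called): library size only 2, DESeq2 28, library set 2 alone 2, without NoCre WT libraries 4 and 5 together 2. With library size only Tubb2a was 0.0022, Tubb2b 0.011, Tuba1a 0.059, Stmn2 0.16, Stmn3 0.073, Map1b 0.14 and Rpl22 0.073. In set 1 alone Tubb2a was 0.050, Tuba1a 0.13, Tuba4a 0.049 and Stmn3 0.13; Stmn3 was 0.091 without NoCre WT libraries 4 and 5; in set 2 alone Map1b was 0.096 and Gars -0.25.

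Interaction, genes called: library size only 5, without mitochondrial ribosomal RNA 28, DESeq2 382, library set 1 alone 406. In set 1 alone Tubb3 was -0.37, Tubb2a -0.71, Tuba1a -0.82, Tuba4a -0.75, Stmn3 -0.62 and Rpl22 -0.13. With library size only Tubb2a was -0.14, Tuba1a -0.19, Tuba4a -0.18 and Stmn1 -0.10. Without NoCre WT libraries 4 and 5 Tubb2a was -0.13, Tuba1a -0.17, Tuba4a -0.14 and Stmn3 -0.061. With members alone in the denominator, the Tuba4a share differed by 0.388 points in P278KY and 0.139 points in WT enrichment.

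With single libraries left out, calls of all genes ran from 95 to 324 in the Cre genotype difference (lowest without Cre P278KY library 1, 2 or 3), 2 to 6 in the NoCre genotype difference and 41 to 250 in the interaction. Members called in P278KY enrichment were 7 to 9. Signs turned within -0.25 to 0.091 for Tubb3, -0.67 to 0.16 for Stmn1, -0.17 to 0.35 for Stmn3, -0.016 to 0.52 for Stmn4 and -0.0056 to 0.24 for Rpl22 in the Cre genotype difference, -0.46 to 0.13 for Stmn4 in P278KY and -0.24 to 0.20 for Tubb2b in WT enrichment, -0.13 to 0.16 for Gars in NoCre, -0.25 to 0.64 for Stmn1 in the interaction, and -0.560 to 0.150 points for the Tuba4a share in WT enrichment. Without mitochondrial ribosomal RNA in the library size, 28.5% of calls in P278KY and 29.4% in WT enrichment were higher, beside 47.5% and 47.7%, with all-gene medians of -0.55 and -0.51; with library size only the WT values were 59.1% and 0.20.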
